A study of Homo sapiens with 6 samples.

Results

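A set of 35 genes for calcium entry, calcium stores, calcium pumps and calcineurin-NFAT signalling was examined in MOLM-13, an established human cell line of acute myeloid leukaemia, monocytic (M5) type. The members were named by symbol for their textbook roles, with earlier results of these data known. All 35 were found among the 24878 genes of the deposited table. RNA-seq of poly-A selected RNA covered 6 libraries in 3 groups of 2. The first group held cells carrying a CaMK2D knockout (KO) vector that doxycycline induces, taken after 3 days of doxycycline. The second held the same kind of cells after 5 days. The third held control cells, read here as having received no doxycycline, which their descriptions do not state. The labels do not say whether the controls carried the vector. On that reading the controls differed from the KO-labelled cells in doxycycline and perhaps also in vector. The days differed in exposure and time together, so these cannot be told apart. The labels do not say whether replicates were grown apart or whether the KO cells were 1 clone. A p-value here therefore reads the spread among these 6 libraries alone, and that spread may be technical.

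Calcium in a resting blood cell is kept low in the cytosol by pumps in the plasma membrane and in the endoplasmic reticulum. Phospholipase C makes inositol trisphosphate (IP3), which opens IP3 receptors and empties the endoplasmic reticulum, and STIM proteins sense the empty store and open ORAI channels in the plasma membrane. A sustained calcium rise loads calmodulin, which activates CaMKII, the kinase family that CAMK2D belongs to, and the phosphatase calcineurin, which sends NFAT transcription factors to the nucleus.

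RCAN1, an inhibitor of calcineurin that is itself a known NFAT target, links these genes to a readable DNA sequence, since GGAAA is the core of the NFAT binding motif. The stretches shown are taken from the 250 bases before RefSeq starts (GRCh38.p14), cut to the bases outside the gene's own GENCODE release 29 exons. Capitals mark GGAAA on the printed strand or TTTCC, which is GGAAA on the other strand. The first is the stretch at chr21:34526964-34527072 on the minus strand. It lies inside the RCAN1 gene and ends 141 bases before an internal start.
RCAN1 internal start: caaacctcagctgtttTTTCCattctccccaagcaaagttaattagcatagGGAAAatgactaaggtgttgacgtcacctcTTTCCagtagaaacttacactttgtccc
RCAN1 first start, chr21:34615143-34615363, minus strand: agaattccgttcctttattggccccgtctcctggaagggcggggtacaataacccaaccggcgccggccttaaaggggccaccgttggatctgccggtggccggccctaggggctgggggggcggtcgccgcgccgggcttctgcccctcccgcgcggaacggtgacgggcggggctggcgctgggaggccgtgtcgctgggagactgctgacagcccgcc
ITPR1, chr3:4493098-4493344, plus strand: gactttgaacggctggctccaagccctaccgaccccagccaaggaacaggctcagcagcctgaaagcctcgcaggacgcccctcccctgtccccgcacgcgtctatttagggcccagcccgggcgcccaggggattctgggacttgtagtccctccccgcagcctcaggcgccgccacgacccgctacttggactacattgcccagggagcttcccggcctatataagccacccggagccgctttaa
The 109 bases at the internal RCAN1 start held 3 matches, 1 on the printed strand and 2 on the other, and 0.920% of all 35116 RefSeq windows held at least 3 in the same stretch. The 221 bases at the first RCAN1 start held 0 matches, where 51.4% of windows held at least 1. The 247 bases at ITPR1 also held 0, against 55.3% of windows in that stretch. Over its full 250 bases, exons included, the internal start held 4 matches, and 1.87% of all windows held at least 4. RCAN1 has 6 RefSeq starts, and the 250-base windows of the other 5 held 0 matches, so the internal start is the 1 of 6 with the most matches. The 0.920% and the 1.87% are thus shares set beside the richest of 6 starts. The stretch there was 41.3% G and C, against 71.5% at the first RCAN1 start and 65.2% at ITPR1. The part of base composition in these counts was not tested. ITPR1 is shown as 1 of the other called genes with bases outside exons. Over 250 bases, the windows of ITPR1 and MICU2 held 0 matches, that of P2RX7 held 2, that of ATP2B4 held 1, and 3 of the 4 windows of STIM1 held 1 each. RefSeq entries were found for 26 of the 35 members, with 44 windows, of which 19 (43.2%) held at least 1 match in 250 bases, against 55.7% of all windows. A match is a description of letters and not a binding site, and counts summed over a gene do not tell which of the 6 RCAN1 starts was used.

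Against control, 3 of the 35 members passed an edgeR adjusted p of 0.05 at day 3 (8.57%), 2 of them higher (STIM1 and ITPR1) and 1 lower (ATP2B4), where 11.7% of the 14601 genes tested passed, 5.72% higher and 5.99% lower. At day 5, 6 members passed (17.1%), 5 higher (STIM1, ITPR1, MICU2, P2RX7 and RCAN1) and 1 lower (ATP2B4), where 14.5% of all genes tested passed, 7.44% higher and 7.05% lower. Both shares were near the background. At an unadjusted p under 0.05 there were 12 members at day 3 (34.3%) and 13 at day 5 (37.1%), where 28.9% and 30.8% of genes tested had one. Without either 1 of the day 3 libraries 1 member was called at day 3, and without either 1 of the day 5 libraries 2 members were called at day 5. The share of all genes tested fell as well, to 1.79% and 2.11% at day 3, and to 5.79% and 4.66% at day 5. With relative log expression (RLE) scaling the day 5 calls split into 4 higher and 3 lower, with ORAI1 and PPP3CB added among the lower (edgeR adjusted p = 0.044 and 0.04999). The median log2 fold change of the 35 members was -0.04 at day 3 and 0.05 at day 5, against -0.00012 and 0.015 over all genes tested. The range ran from -1.15 to 0.99 at day 3 and from -0.87 to 1.31 at day 5. In bulk RNA, fewer cells of a type and less RNA per cell cannot be told apart. All 35 members passed the filter on low counts, with 49 to 7584 counts per library.

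**Figure D1:**
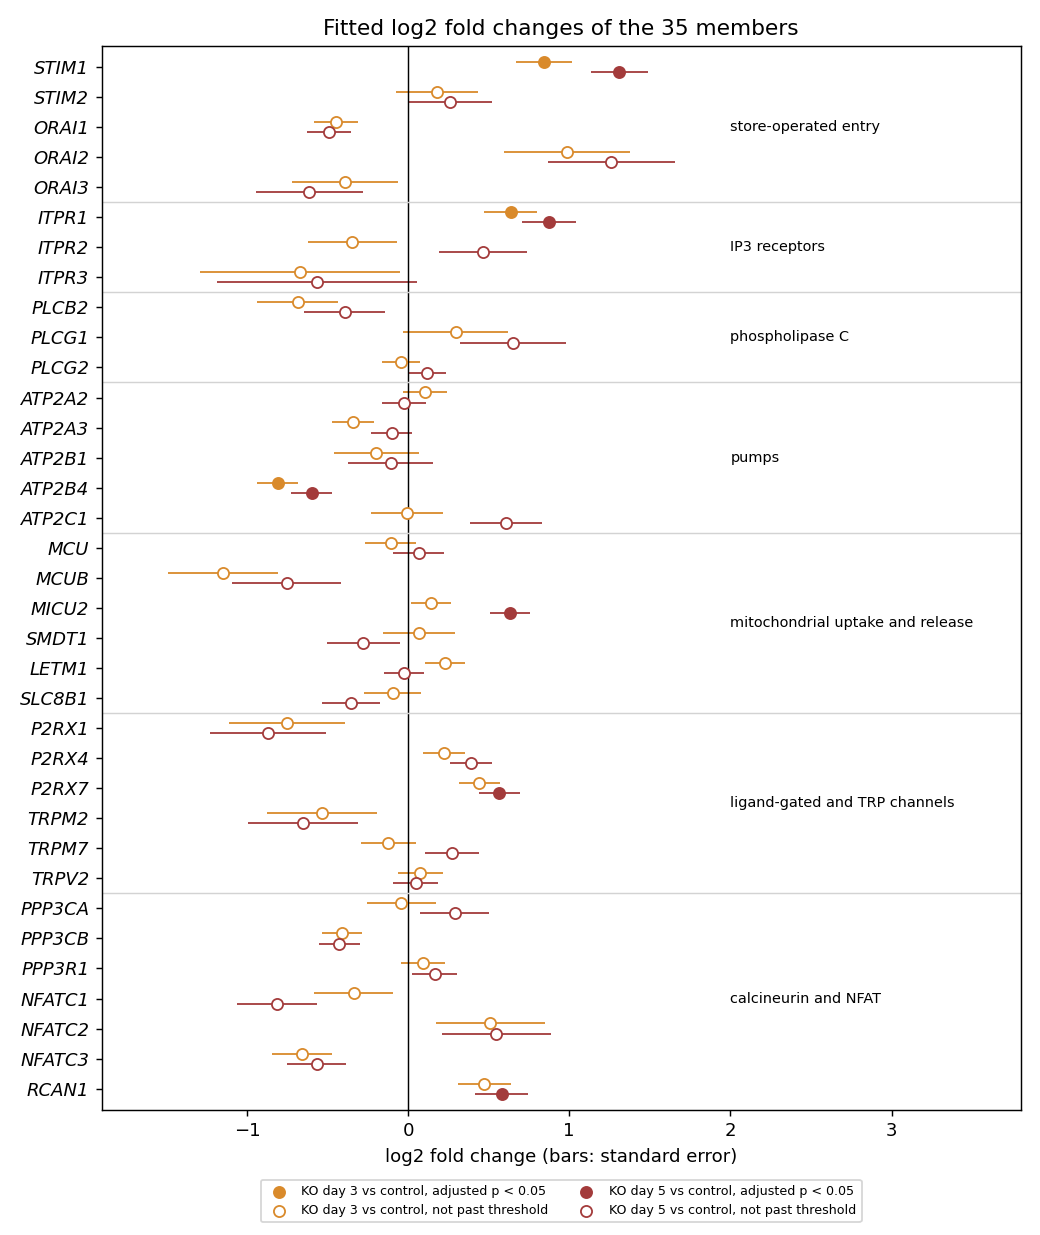
Log2 fold change of each of the 35 members against control at day 3 and day 5, grouped by role (x axis: log2 fold change; bars: standard error; filled points: edgeR adjusted p under 0.05). STIM1 lies farthest to the right among the filled points, at 0.84 at day 3 and 1.31 at day 5, and ATP2B4 is the filled point to the left.

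The calcium sensor of the store was the member with the largest called change. STIM1 sits in the endoplasmic reticulum membrane, binds ORAI channels when the store empties, and is encoded at chr11:3854527-4093210 on the plus strand (GRCh38). Its level was 103 and 79.6 CPM (the count scaled to library size with trimmed mean of M-values factors, TMM) at day 3, 137 and 115 CPM at day 5, and 56.2 and 45.5 CPM in controls. All 4 KO-labelled libraries lay above both controls. STIM1 rose by a log2 fold change of 0.84 at day 3 (SE 0.176, edgeR adjusted p = 0.023, n = 2 each) and of 1.31 at day 5 (SE 0.178, edgeR adjusted p = 0.00467, n = 2 each), a fold of 2.48. The day 5 call held in every alternative run, with log2 fold changes between 1.14 and 1.46. The day 3 call did not hold without KO day 3 replicate 1 (edgeR adjusted p = 0.146) or without control replicate 2 (edgeR adjusted p = 0.0527), nor with limma on FPKM (limma adjusted p of 0.0532 and 0.0529 on log2 of FPKM plus 1 and plus 0.1, and 0.131 without a filter).

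STIM2, the second sensor, and the ORAI channels did not pass by edgeR, while DESeq2 called ORAI1 at day 3 and day 5 (adjusted p = 0.0358 and 0.0139) and ORAI2 at day 5 (adjusted p = 0.0086). STIM2 was at 15.6 and 17.1 CPM at day 3, 18.2 and 16.4 CPM at day 5, and 18.0 and 10.98 CPM in controls, and the groups overlapped. ORAI1, the pore of store-operated entry, was at 99.9 and 96.0 CPM at day 3, 105 and 84.9 CPM at day 5, and 139 and 128 CPM in controls. Its KO-labelled libraries all lay below both controls, with a log2 fold change of -0.45 at day 3 (SE 0.139, edgeR adjusted p = 0.0759, n = 2 each) and -0.49 at day 5 (SE 0.139, edgeR adjusted p = 0.0507, n = 2 each). ORAI2 stood the other way, at 29.6 and 34.6 CPM at day 3, 29.7 and 47.8 at day 5, and 10.1 and 22.05 CPM in controls. Its control libraries differed by more than a factor of 2, and its log2 fold changes of 0.99 at day 3 (edgeR adjusted p = 0.155, n = 2 each) and 1.262 at day 5 (edgeR adjusted p = 0.0813, n = 2 each) did not pass. ORAI2 shares 584 exon bases with ALKBH4 on the other strand, and ORAI3 shares 52.9% of its exon length with a transcript on its own strand, so both levels are uncertain. ORAI3 averaged 9.72 ± 3.13 CPM at day 3, 8.31 ± 1.91 at day 5 and 12.7 ± 3.60 in controls (SD, n = 2 each).

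**Figure D2:**
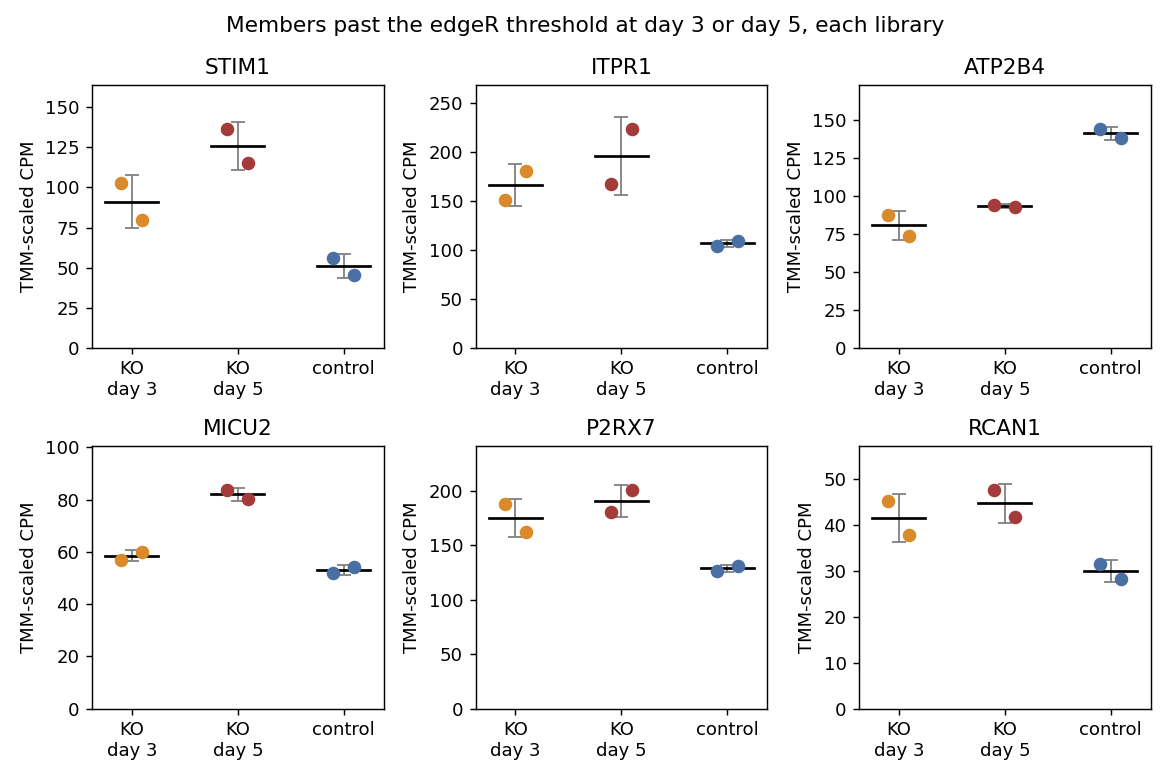
TMM-scaled CPM of the 6 members that passed the test at day 3 or day 5, 1 point per library, with the group mean as a line and the SD as a thin bar (y axis: CPM from 0). STIM1, ITPR1, P2RX7 and RCAN1 have all 4 KO-labelled libraries above both controls, ATP2B4 has all 4 below, and MICU2 stands apart mainly at day 5.

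Among the release channels, ITPR1 was called and its paralogues were not. ITPR1 encodes IP3 receptor type 1 at chr3:4493345-4847840 on the plus strand. It was at 151 and 181 CPM at day 3, 168 and 224 CPM at day 5, and 104 and 109 CPM in controls. All 4 KO-labelled libraries were above both controls. ITPR1 rose by a log2 fold change of 0.64 at day 3 (SE 0.165, edgeR adjusted p = 0.0442, n = 2 each) and of 0.87 at day 5 (SE 0.165, edgeR adjusted p = 0.0141, n = 2 each). The day 3 call was close to the threshold and did not hold when any 1 of the day 3 or control libraries was left out (edgeR adjusted p of 0.0947 without KO day 3 replicate 1, 0.24 without replicate 2, 0.13 without control replicate 1 and 0.0678 without replicate 2). The day 5 call ended when KO day 5 replicate 2 was left out (edgeR adjusted p = 0.0714).

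ITPR2 and ITPR3, the type 2 and type 3 receptors, varied without passing. ITPR2 averaged 10.7 ± 2.48 CPM at day 3, 18.7 ± 2.16 at day 5 and 13.6 ± 3.88 in controls (SD, n = 2 each). ITPR3 was at 32.0 and 13.6 CPM at day 3, 32.6 and 16.5 CPM at day 5, and 50.7 and 22.1 CPM in controls. Within each group the replicate 2 library of ITPR3 was lower than the replicate 1 library by more than the groups differed from each other. Each KO-labelled library of ITPR3 was below the control of the same replicate number. With that number as a block, ITPR3 was called lower at day 3 and day 5 (edgeR adjusted p = 0.00369 and 0.0164). That fit called 27.8% of genes tested at day 3 and 30.3% at day 5. ITPR3 shares 1025 exon bases (10.4% of its exon length) with UQCC2 on the other strand, and the library kit is not stated to keep strand.

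The phospholipase C genes make the IP3 that opens these receptors, and 0 of 3 passed by edgeR against control. At an unadjusted p under 0.05 there was 1 at day 3, PLCB2, which DESeq2 also called, and 0 at day 5. Of genes tested, 28.9% and 30.8% had such a p. PLCB2, the beta isoform of blood cells that G proteins activate, was at 72.7 and 86.1 CPM at day 3, 73.3 and 121 CPM at day 5, and 111 and 144 CPM in controls. Its day 3 libraries were below both controls and its day 5 libraries overlapped them, with a log2 fold change of -0.68 at day 3 (SE 0.251, edgeR adjusted p = 0.1253, n = 2 each) and -0.39 at day 5 (SE 0.250, edgeR adjusted p = 0.335, n = 2 each). PLCG2, which B cell and Fc receptors activate through tyrosine kinases, averaged 165 ± 1.19 CPM at day 3, 184 ± 4.54 at day 5 and 170 ± 14.6 in controls (SD, n = 2 each). PLCG1, its paralogue of T cell receptor signalling, averaged 10.6 ± 3.92 CPM at day 3, 13.5 ± 2.70 at day 5 and 8.64 ± 2.05 in controls (SD, n = 2 each). PLCG1 shares 268 exon bases with ZHX3 on the other strand, which averaged 49.7 CPM, so the PLCG1 level is uncertain.

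One pump fell. ATP2B4 encodes a plasma membrane calcium pump (PMCA4), which exports calcium from the cell, at chr1:203626561-203744081 on the plus strand. It was at 87.0 and 73.8 CPM at day 3, 93.9 and 92.4 CPM at day 5, and 144 and 138 CPM in controls. The KO-labelled libraries all lay below the controls, with no overlap. ATP2B4 fell by 0.81 on the log2 scale at day 3 (SE 0.127, edgeR adjusted p = 0.00894, n = 2 each) and by 0.60 at day 5 (SE 0.127, edgeR adjusted p = 0.0203, n = 2 each). The day 3 call ended when KO day 3 replicate 2 was left out (edgeR adjusted p = 0.099). The day 5 call ended when either day 5 library was left out (edgeR adjusted p = 0.0809 without replicate 1 and 0.103 without replicate 2).

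The other pumps did not pass by the reported edgeR fit or DESeq2. ATP2A3, the SERCA3 pump that refills the endoplasmic reticulum in blood cells, was at 210.0 and 213 CPM at day 3, 227 and 273 CPM at day 5, and 277 and 260 CPM in controls. Its day 3 libraries lay below both controls, where the log2 value was -0.34 (SE 0.128, edgeR adjusted p = 0.122, n = 2 each), and its day 5 libraries overlapped them, with -0.10 (edgeR adjusted p = 0.641, n = 2 each). ATP2A2, the SERCA2 pump present in most cells, averaged 389 ± 8.39 CPM at day 3, 356 ± 15.6 at day 5 and 362 ± 56.2 in controls (SD, n = 2 each). ATP2B1, the widely expressed plasma membrane pump PMCA1, averaged 42.6 ± 7.82 CPM at day 3, 45.3 ± 7.62 at day 5 and 48.9 ± 17.4 in controls (SD, n = 2 each). ATP2C1 loads calcium and manganese into the Golgi. It was at 44.0 and 37.6 CPM at day 3, 63.5 and 61.6 CPM at day 5, and 50.7 and 31.5 CPM in controls. The day 5 libraries were thus the highest, without a call in the reported fit (day 5 log2 fold change 0.61, edgeR adjusted p = 0.107, n = 2 each). Without the low-count filter ATP2C1 was called higher at day 5 (edgeR adjusted p = 0.0123), where 13.0% of genes tested passed. With the replicate number as a block, ATP2A3 was called lower at day 3 and ATP2C1 higher at day 5 (edgeR adjusted p = 0.0373 and 0.00442). The block fit called 27.8% of genes tested at day 3 and 30.3% at day 5.

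Of the 6 genes for mitochondrial calcium, 0 passed at day 3 by edgeR and 1 passed at day 5, where 11.7% and 14.5% of genes tested passed. MCUB was the 1 gene of them with an unadjusted p under 0.05 at day 3, where 28.9% of genes tested had one, and DESeq2 called it. MICU2, a gatekeeper that keeps the mitochondrial uniporter closed at low calcium, is encoded at chr13:21492691-21604214 on the minus strand. It was at 57.0 and 60.0 CPM at day 3, 83.9 and 80.3 CPM at day 5, and 51.7 and 54.3 CPM in controls. The day 5 libraries stood above all others, and the day 3 libraries only slightly above the controls. MICU2 rose by a log2 fold change of 0.63 at day 5 (SE 0.123, edgeR adjusted p = 0.0157, n = 2 each), and its day 3 value was 0.14 (SE 0.123, edgeR adjusted p = 0.489, n = 2 each). The day 5 call ended when either day 5 library was left out (edgeR adjusted p = 0.082 without replicate 1 and 0.0649 without replicate 2).

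The uniporter's other genes did not pass by edgeR. MCU, its pore, averaged 36.9 ± 1.99 CPM at day 3, 41.6 ± 6.03 at day 5 and 39.7 ± 1.33 in controls (SD, n = 2 each). MCUB, the pore paralogue that lowers uptake, was at 2.55 and 3.24 CPM at day 3, 4.30 and 3.33 CPM at day 5, and 6.36 and 6.52 CPM in controls. MCUB lay below the controls in all 4 KO-labelled libraries, with the lowest fitted value of all members at day 3, -1.15 (SE 0.341, edgeR adjusted p = 0.0672, n = 2 each), and -0.75 at day 5 (SE 0.337, edgeR adjusted p = 0.172, n = 2 each). MCUB shares 105 exon bases with CASP6 on the other strand, which averaged 6.32 CPM, so the MCUB level is uncertain. SMDT1 (EMRE), which joins the pore to its gatekeepers, was at 39.7 and 47.3 CPM at day 3, 36.2 and 32.3 CPM at day 5, and 32.0 and 50.9 CPM in controls. The SMDT1 control libraries enclosed both day 3 values and both day 5 values, and its log2 fold changes were 0.068 at day 3 (SE 0.226, edgeR adjusted p = 0.882, n = 2 each) and -0.28 at day 5 (SE 0.227, edgeR adjusted p = 0.456, n = 2 each). LETM1, an inner membrane exchanger of protons with potassium or calcium, averaged 92.0 ± 6.80 CPM at day 3, 77.1 ± 3.46 at day 5 and 78.4 ± 3.11 in controls, and SLC8B1 (NCLX), the sodium-calcium exchanger of mitochondrial release, averaged 42.2 ± 2.72, 35.2 ± 6.74 and 45.05 ± 5.11 CPM in the same order (SD, n = 2 each).

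Among the ligand-gated and TRP channels, 0 of 6 passed at day 3 by edgeR and 1 passed at day 5, where 11.7% and 14.5% of genes tested passed. P2RX7 was the 1 gene of them with an unadjusted p under 0.05 at day 3, where 28.9% of genes tested had one, and DESeq2 called it. P2RX7, a channel that high extracellular ATP opens and a known trigger of the inflammasome in monocytes, is encoded at chr12:121132819-121188032 on the plus strand. It was at 188 and 162 CPM at day 3, 180 and 201 CPM at day 5, and 126 and 131 CPM in controls. All 4 KO-labelled libraries were higher than both controls. P2RX7 rose by a log2 fold change of 0.57 at day 5 (SE 0.127, edgeR adjusted p = 0.0246, n = 2 each), against 0.44 at day 3 (SE 0.127, edgeR adjusted p = 0.0602, n = 2 each). The P2RX7 day 5 call ended when 1 of 5 libraries was left out, with an edgeR adjusted p of 0.0629 for KO day 5 replicate 1, 0.128 for KO day 5 replicate 2, 0.0557 for control replicate 1, 0.0572 for KO day 3 replicate 1 and 0.0555 for KO day 3 replicate 2.

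P2RX1, an ATP-gated channel of platelets and myeloid cells, had lower values in KO-labelled libraries without passing by edgeR, while DESeq2 called it lower at day 5 (log2 fold change -0.89, adjusted p = 0.0346). Its level was 57.7 and 95.1 CPM at day 3, 50.8 and 90.02 CPM at day 5, and 108 and 149 CPM in controls, with log2 fold changes of -0.75 at day 3 (edgeR adjusted p = 0.23, n = 2 each) and -0.87 at day 5 (edgeR adjusted p = 0.167, n = 2 each). P2RX4, the ATP-gated channel of lysosomes and plasma membrane, averaged 81.5 ± 6.48 CPM at day 3, 91.4 ± 3.51 at day 5 and 69.8 ± 5.06 in controls (SD, n = 2 each). It did not pass by the reported edgeR fit or DESeq2. With the replicate number as a block, P2RX4 was called higher at day 5 (edgeR adjusted p = 0.0171). TRPM2, which ADP-ribose opens in myeloid cells under oxidative stress, was at 135 and 199.6 CPM at day 3, 118 and 191 CPM at day 5, and 185 and 299 CPM in controls. In each group of TRPM2 the replicate 2 library was the higher one, and the day 3 and day 5 groups each overlapped the controls. Its log2 fold changes were -0.53 at day 3 (SE 0.340, edgeR adjusted p = 0.357, n = 2 each) and -0.65 at day 5 (SE 0.341, edgeR adjusted p = 0.259, n = 2 each). For TRPM2 and P2RX1 each KO-labelled library was below the control of the same replicate number. With that number as a block, TRPM2 was called lower at day 3 and day 5 (edgeR adjusted p = 0.00188 and 0.000262). So was P2RX1 (edgeR adjusted p = 0.000133 and 2.3e-05). That fit called 27.8% of genes tested at day 3 and 30.3% at day 5. TRPM7, a channel joined to a kinase that also carries magnesium, averaged 58.1 ± 2.47 CPM at day 3, 76.5 ± 7.18 at day 5 and 63.3 ± 13.5 in controls (SD, n = 2 each). TRPV2, a cation channel of macrophages, averaged 54.0 ± 2.44 CPM at day 3, 52.9 ± 5.57 at day 5 and 51.3 ± 2.62 in controls (SD, n = 2 each).

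Of the 7 calcineurin and NFAT genes, 0 passed at day 3 by edgeR and 1, RCAN1, passed at day 5, where 11.7% and 14.5% of genes tested passed. At day 3, 3 had an unadjusted p under 0.05 (PPP3CB, NFATC3 and RCAN1), where 28.9% of genes tested had one. DESeq2 called PPP3CB and NFATC3 at day 3. RCAN1, encoded at chr21:34513142-34615142 on the minus strand, was at 45.2 and 37.9 CPM at day 3, 47.8 and 41.8 CPM at day 5, and 31.6 and 28.3 CPM in controls. Its 4 KO-labelled libraries were all above both controls. RCAN1 rose at day 5 by 0.58 on the log2 scale (SE 0.163, edgeR adjusted p = 0.0497, n = 2 each), against 0.47 at day 3 (SE 0.163, edgeR adjusted p = 0.0999, n = 2 each). That call stood at the edge of the threshold. It was lost with RLE scaling (edgeR adjusted p = 0.058), with upper-quartile scaling (edgeR adjusted p = 0.0541), and whenever any 1 library was left out, with edgeR adjusted p between 0.0702 and 0.201.

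The subunits of calcineurin and the NFAT factors did not pass by edgeR at day 5 either, while DESeq2 called PPP3CB, NFATC1 and NFATC3 there (adjusted p = 0.0188, 0.0173 and 0.0411). PPP3CB, a catalytic subunit, was at 88.8 and 97.3 CPM at day 3, 92.7 and 91.3 CPM at day 5, and 132 and 115 CPM in controls. Its KO-labelled libraries lay below both controls, with log2 fold changes of -0.41 at day 3 (SE 0.126, edgeR adjusted p = 0.0755, n = 2 each) and -0.43 at day 5 (SE 0.126, edgeR adjusted p = 0.0589, n = 2 each). PPP3CA, the other catalytic subunit, averaged 83.4 ± 13.9 CPM at day 3, 105 ± 12.8 at day 5 and 85.9 ± 23.8 in controls (SD, n = 2 each). PPP3R1, the regulatory subunit that binds calcium, averaged 40.0 ± 0.935 CPM at day 3, 42.1 ± 1.50 at day 5 and 37.5 ± 1.49 in controls (SD, n = 2 each). PPP3R1 shares 20.8% of its exon length with an antisense transcript and 13.7% with a coding gene on its own strand.

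The NFAT factors enter the nucleus once calcineurin removes their phosphates, and NFATC1 and NFATC3 had lower values in KO-labelled libraries while NFATC2 did not. NFATC3 was at 41.6 and 39.5 CPM at day 3, 40.1 and 46.2 CPM at day 5, and 74.9 and 53.1 CPM in controls, with no overlap and log2 fold changes of -0.66 (edgeR adjusted p = 0.0575, n = 2 each) at day 3 and -0.57 (edgeR adjusted p = 0.0779, n = 2 each) at day 5. NFATC1 averaged 37.9 ± 8.38 CPM at day 3, 27.2 ± 8.83 at day 5 and 47.9 ± 2.04 in controls (SD, n = 2 each), and the day 5 difference had an edgeR adjusted p of 0.066. NFATC2 averaged 7.26 ± 0.862 CPM at day 3, 7.47 ± 1.45 at day 5 and 5.12 ± 1.75 in controls (SD, n = 2 each). NFATC3 shares 31.8% of its exon length with an antisense transcript.

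Levels can be compared between genes only per length, on the deposited FPKM scale, which divides by library size and exon length. In controls the median over the 35 members was 8.54 FPKM, against 3.85 FPKM over all genes tested. ORAI1 had the highest level of the members at 58.9 ± 4.24 FPKM in controls (SD, n = 2), then ATP2A3 at 38.9 ± 2.26, TRPM2 at 36.0 ± 11.6 and P2RX1 at 32.3 ± 6.88 FPKM. Neighbouring values among the last 3 differed by less than their spread. PPP3CB at 24.3 ± 2.69, SMDT1 at 23.8 ± 7.40 and PLCB2 at 17.3 ± 3.01 FPKM led calcineurin, the mitochondrial genes and the IP3 genes in controls. The lowest of each role in controls were NFATC2 at 0.618 ± 0.219, PLCG1 at 0.895 ± 0.223, ORAI2 at 1.44 ± 0.743, MCUB at 1.80 ± 0.00917, ATP2C1 at 4.82 ± 1.65 and TRPM7 at 5.11 ± 1.15 FPKM (SD, n = 2). ITPR1 has 32454 summed exon bases, which lowers its FPKM beside genes with shorter annotated exons.

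**Figure D3:**
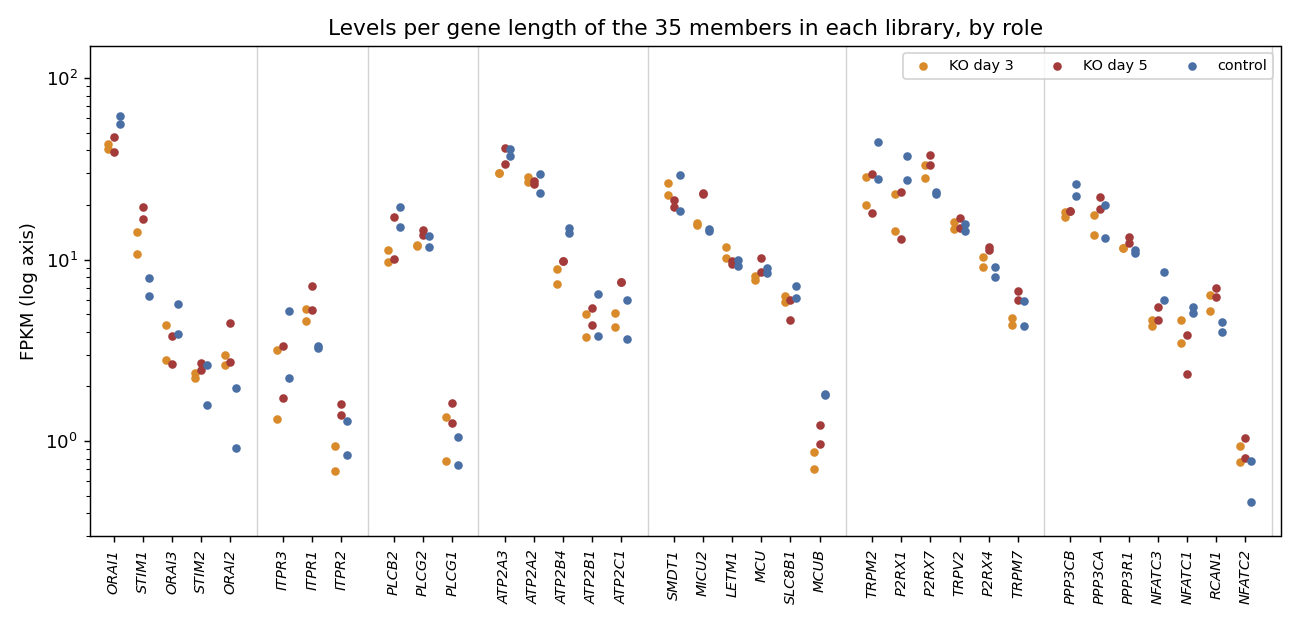
Deposited FPKM of the 35 members by role, with 1 point per library (log axis). ORAI1 is the highest in controls at 58.9 FPKM and NFATC2 the lowest at 0.618 FPKM.

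The make-up of several families, as each member's share of the family's summed FPKM, differed between groups in these libraries. STIM1 made up 86.4% and 81.9% of the STIM sum at day 3, 87.9% and 87.2% at day 5, and 75.2% and 80.1% in controls. P2RX7 made up 57.4% and 46.7% of the P2X sum at day 3, 57.2% and 51.9% at day 5, and 38.6% and 34.1% in controls, and the P2RX1 share was 24.7% and 38.2%, 22.5% and 32.5%, and 46.2% and 54.2% in the same order. Among the P2X genes of the set, then, P2RX7 held the largest share in each KO-labelled library and P2RX1 in each control. MCUB made up 8.39% and 9.73% of the MCU and MCUB sum at day 3, 10.7% and 10.2% at day 5, and 16.6% and 17.6% in controls. ORAI2 made up 5.36% and 6.22% of the ORAI sum at day 3, 5.17% and 9.46% at day 5, and 1.37% and 3.09% in controls, while ORAI1 held at least 82.5% of it in each library. ITPR1 made up 54.1% and 70.4% of the IP3 receptor sum at day 3, 51.4% and 69.6% at day 5, and 33.4% and 52.1% in controls. The day 5 and control shares of ITPR1 overlapped, and those of ORAI1 overlapped, while the other shares named here did not. These shares were not tested, and they move with the library differences described below.

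**Figure D4:**
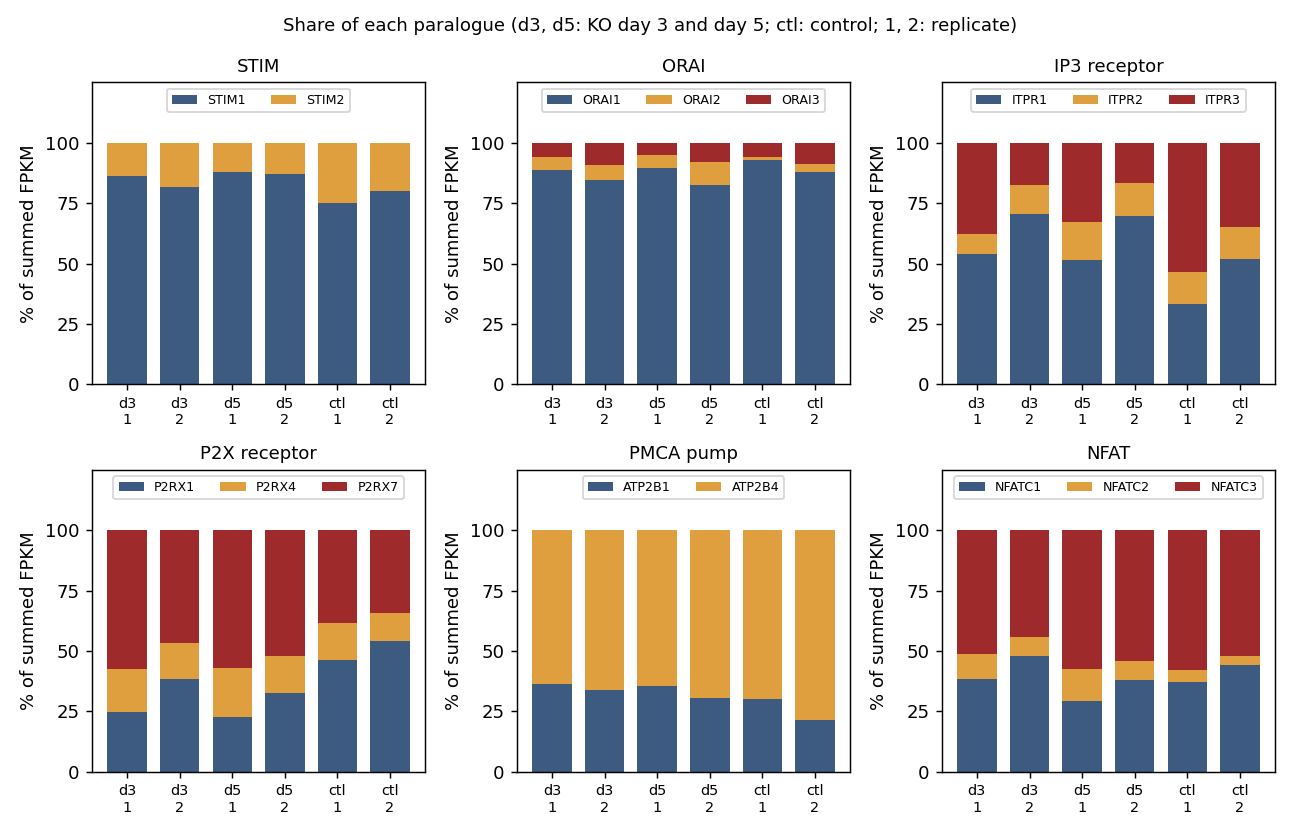
Share of the family's summed FPKM held by each paralogue, in percent, for each library, with families limited to genes of the set. P2RX7 holds 46.7 to 57.4% of the P2X sum in KO-labelled libraries and 34.1 to 38.6% in controls.

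Between day 5 and day 3, 0 of the 35 members passed an edgeR adjusted p of 0.05, where 0.0274% of genes tested passed, and 5 had an unadjusted p under 0.05 (14.3%), where 15.1% of genes tested did. Those 5 were STIM1, MICU2, ATP2C1, ITPR2 and TRPM7, each higher at day 5, where 8.55% of genes tested were higher and 6.55% lower by that rule. DESeq2 called 1 member, MICU2, and limma-voom 0. MICU2 had a log2 difference of 0.49 (SE 0.123, edgeR adjusted p = 0.193, n = 2 each) with both day 5 libraries above both day 3 libraries. ITPR2 had the largest, 0.81 (SE 0.274, edgeR adjusted p = 0.259, n = 2 each), and the value of STIM1 was 0.47 (SE 0.174, edgeR adjusted p = 0.278, n = 2 each). The day 5 and day 3 libraries did not overlap for 16 members (45.7%), 12 of them higher and 4 lower at day 5, where 49.2% of genes tested did not overlap (25.5% higher, 23.8% lower). Against control, 20 members (57.1%) did not overlap at day 3 and 22 (62.9%) at day 5, where 60.4% and 58.1% of genes tested did not. These were 10 higher and 10 lower at day 3, where 30.3% and 30.1% of genes tested were, and 13 higher and 9 lower at day 5, where 29.6% and 28.4% were.

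Libraries of 1 group also differed in a repeated way. For 22 of the 35 members (62.9%) the replicate 2 library stood on the same side of the replicate 1 library in all 3 groups, where 40.4% of genes tested did. Replicate 2 was the higher one for 7 of them (ORAI2, ORAI3, ITPR1, PLCB2, P2RX1, TRPM2 and PPP3R1) and the lower one for 15. ITPR3 had the widest gap, with log2 ratios of replicate 2 over replicate 1 of -1.24 at day 3, -0.98 at day 5 and -1.20 in controls. The library titles carry the letter A for replicate 1 and B for replicate 2 in all 3 groups. The labels do not say what the letter or the replicate number stands for.

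**Figure D5:**
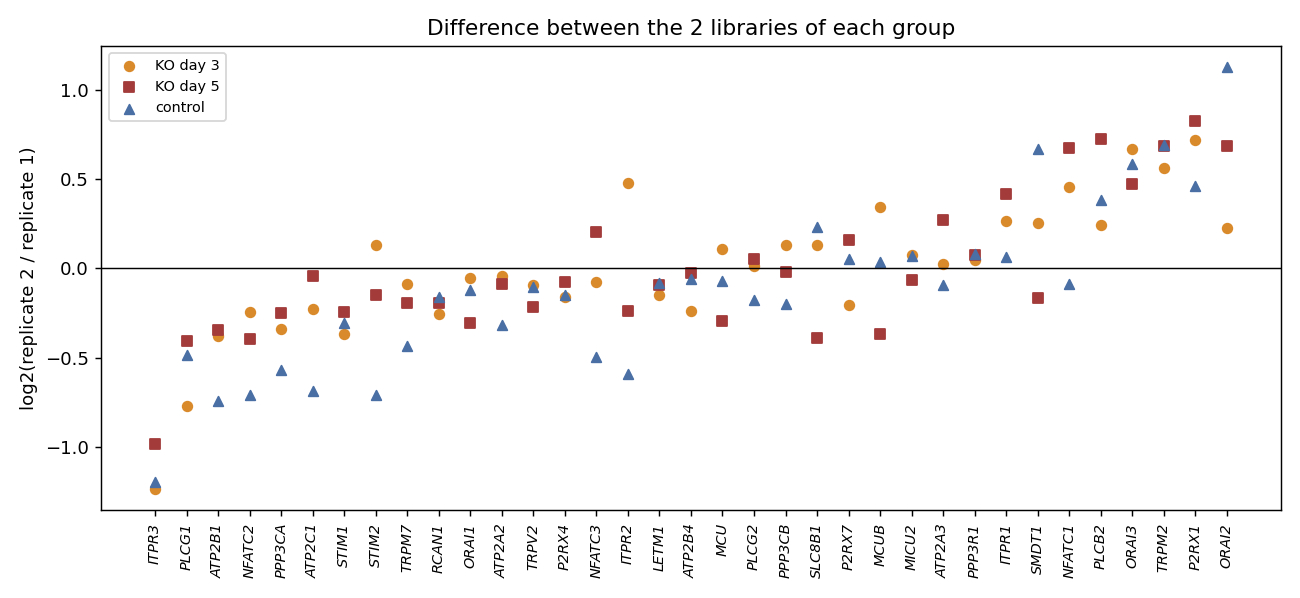
Log2 ratio of the replicate 2 library over the replicate 1 library for each member in the day 3, day 5 and control groups. ITPR3 lies lowest, at -1.24, -0.98 and -1.20.

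Further genes of the same pathways were taken from 7 lists of 173 genes, of which 147 were in the table and 113 passed the filter on low counts. At each day 18 of the 113 passed (15.9%), 7 higher and 11 lower, where 11.7% of genes tested passed at day 3 and 14.5% at day 5. By direction, 5.72% of genes tested were called higher and 5.99% lower at day 3, and 7.44% higher and 7.05% lower at day 5. Their median log2 fold change was -0.11 at day 3 and -0.06 at day 5, against -0.00012 and 0.015 over all genes tested. List by list, the median at day 3 and at day 5 was -0.02 and 0.11 for regulators of entry and stores, 0.05 and -0.16 for mitochondrial genes, -0.51 and -0.37 for phospholipase C and G protein genes, and -0.11 and -0.06 for calcineurin and NFAT genes. It was -0.17 and -0.13 for channels, -0.67 and -0.32 for pumps and exchangers, and -0.88 and -0.05 for NFAT targets. Between day 5 and day 3 edgeR called 0 of the 113, where it called 0.0274% of genes tested. At an unadjusted p under 0.05 there were 18, where 15.1% of genes tested had one. DESeq2 called 3, where it called 2.98% of genes tested. Fewer of the further genes passed at day 3 and at day 5 with any 1 library left out. At day 3 the fewest passed with control replicate 1 or either KO day 3 library left out. At day 5 the fewest passed with KO day 5 replicate 2 left out. The share of all genes tested that passed was lower too, except at day 3 without control replicate 2. The lists were chosen with earlier results of these data known, and their counts are a description.

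Of 25 other regulators of entry and stores, 2 were called higher and 1 lower at day 3, and 2 higher at day 5. These were 12.0% and 8.0% of the list, where 11.7% and 14.5% of genes tested passed. CANX, a calcium-binding chaperone of the endoplasmic reticulum, rose to 985 ± 80.5 CPM at day 3 and 1149 ± 99.9 at day 5, against 646 ± 66.3 in controls (log2 fold changes 0.61 and 0.83, edgeR adjusted p = 0.0275 and 0.00843, n = 2 each). AHCYL1 (IRBIT), which binds the IP3 receptor and lowers its opening, rose at day 5 to 186 ± 14.7 CPM, against 115 ± 3.13 in controls (log2 fold change 0.70, edgeR adjusted p = 0.0095, n = 2 each). Its day 3 level was 154 ± 5.83 CPM (edgeR adjusted p = 0.0528, n = 2 each). LRMP, a membrane partner of IP3 receptors, fell at day 3 to 24.5 ± 0.313 CPM, against 45.7 ± 5.12 in controls (edgeR adjusted p = 0.0193, n = 2 each). The day 3 calls of CANX and LRMP were lost when either day 3 library was left out, with edgeR adjusted p of 0.202 and 0.109 for CANX and 0.117 each for LRMP. LRMP was also lost without control replicate 1 (edgeR adjusted p = 0.0575), and the AHCYL1 day 5 call without KO day 5 replicate 2 (0.0605).

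Of 18 other genes for mitochondrial calcium, 5 were called at day 3 (3 higher, 2 lower) and 6 at day 5 (3 higher, 3 lower). These were 27.8% and 33.3% of the list, where 11.7% and 14.5% of genes tested passed. The list was chosen with earlier results known, so its shares are a description. PPIF, cyclophilin D, which regulates the permeability transition pore, rose to 550 ± 92.3 CPM at day 3 and 859 ± 189 at day 5, against 237 ± 19.4 in controls (log2 fold changes 1.22 and 1.86, edgeR adjusted p = 0.00848 and 0.00173, n = 2 each). GHITM, an inner membrane protein, rose to 772 ± 39.1 CPM at day 3 and 745 ± 72.4 at day 5, against 420.4 ± 0.990 in controls (edgeR adjusted p = 0.00596 and 0.00593, n = 2 each). PPIF and GHITM each had their 4 KO-labelled libraries above both controls. Without KO day 3 replicate 1 the day 3 values were at an edgeR adjusted p of 0.0578 for PPIF and 0.0632 for GHITM. SLC25A23, a carrier of adenine nucleotides that calcium activates, fell to 124 ± 26.8 CPM at day 3 and 122 ± 3.22 at day 5, against 199 ± 9.24 in controls (edgeR adjusted p = 0.0309 and 0.0252, n = 2 each). YME1L1, an inner membrane protease, rose at day 5 to 257 ± 16.2 CPM, against 163 ± 7.92 in controls (edgeR adjusted p = 0.0106, n = 2 each), and was at 213 ± 0.790 CPM at day 3 (edgeR adjusted p = 0.0678, n = 2 each). Single libraries decided the calls of SLC25A23 and YME1L1. With control replicate 1 left out, the edgeR adjusted p of SLC25A23 was 0.0801 at day 3 and 0.0582 at day 5. With a KO library left out it was 0.0506 (replicate 1) and 0.238 (replicate 2) at day 3, and 0.0839 (replicate 1) and 0.115 (replicate 2) at day 5. For YME1L1 it was 0.0643 at day 5 without KO day 5 replicate 1.

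Of 14 other phospholipase C and G protein genes, 5 were called at day 3 (1 higher, 4 lower) and 3 at day 5 (1 higher, 2 lower). These were 35.7% and 21.4% of the list, where 11.7% and 14.5% of genes tested passed. This list too was chosen with earlier results known, so its shares are a description. ITPKA, a kinase that phosphorylates IP3, rose to 31.0 ± 0.123 CPM at day 3 and 37.7 ± 0.550 at day 5, against 10.8 ± 1.07 in controls (log2 fold changes 1.51 and 1.79, edgeR adjusted p = 0.0025 and 0.00114, n = 2 each). INPP5A, a phosphatase that degrades IP3, fell to 57.4 ± 1.93 CPM at day 3 and 46.4 ± 1.44 at day 5, against 91.4 ± 17.3 in controls (log2 fold changes -0.67 and -0.98, edgeR adjusted p = 0.0318 and 0.00775, n = 2 each). ITPKA was called in every alternative run, and INPP5A was not. At day 3 the edgeR adjusted p of INPP5A was 0.0992 with control replicate 1 left out, and 0.153 and 0.197 with KO replicate 1 or 2 left out. At day 5 it was 0.0506 with KO replicate 2 left out. P2RY2, a receptor for ATP and UTP that couples to phospholipase C, fell at day 5 to 76.0 ± 1.31 CPM, against 167 ± 31.2 in controls (edgeR adjusted p = 0.0203, n = 2 each). That call was lost without either day 5 library (edgeR adjusted p = 0.0901 and 0.106) and without control replicate 2 (0.074). PLCB3, another beta isoform, fell at day 3 to 20.8 ± 3.50 CPM, against 37.6 ± 4.77 in controls (edgeR adjusted p = 0.0265, n = 2 each), a call lost without either day 3 library (0.0775 and 0.201) and without control replicate 2 (0.0724).

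Of 24 other calcineurin and NFAT genes, 1 was called lower at day 3 and 4 were called lower at day 5. These were 4.17% and 16.7% of the list, where 11.7% and 14.5% of genes tested passed. HOMER3, a scaffold that binds NFAT, fell to 63.1 ± 9.55 CPM at day 3 and 64.5 ± 6.96 at day 5, against 122 ± 10.3 in controls (log2 fold changes -0.95 and -0.92, edgeR adjusted p = 0.0102 and 0.00948, n = 2 each). CABIN1, a protein that binds and inhibits calcineurin, fell at day 5 to 109 ± 9.25 CPM, against 170 ± 16.1 in controls (edgeR adjusted p = 0.0272, n = 2 each). FKBP1A and PPIA, the immunophilins that carry FK506 and cyclosporin to calcineurin, fell at day 5 to 113 ± 13.7 and 1575 ± 250.4 CPM, against 182 ± 17.3 and 2240 ± 28.3 CPM in controls (edgeR adjusted p = 0.0173 and 0.0464, n = 2 each). PPIA and FKBP1A have many near-identical copies, so their counts are uncertain. Left-out libraries ended the calls of HOMER3 without KO day 3 replicate 2 (edgeR adjusted p = 0.0898) and without KO day 5 replicate 2 (0.0605), and of FKBP1A without KO day 5 replicate 2 (0.104). The edgeR adjusted p of CABIN1 was 0.0669, 0.141 and 0.0694 without KO day 5 replicate 1, KO day 5 replicate 2 and control replicate 1. The edgeR adjusted p of PPIA was 0.226, 0.0693, 0.0949 and 0.0927 without KO day 5 replicate 2, control replicate 1, KO day 3 replicate 1 and KO day 3 replicate 2.

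Of 14 other channels, 1 was called, and it carries protons rather than calcium. At each day that was 7.14% of the list, where 11.7% of genes tested passed at day 3 and 14.5% at day 5. HVCN1, the voltage-gated proton channel that supports the oxidative burst, fell to 18.1 ± 1.09 CPM at day 3 and 18.1 ± 5.96 at day 5, against 56.8 ± 1.58 in controls (log2 fold change -1.65 at both days, edgeR adjusted p = 0.00588 and 0.0048, n = 2 each). Of 6 other pumps and exchangers, ATP2B3 alone was called, lower at both days, which was 16.7% of the list beside the same 11.7% and 14.5%. It had 1 and 0 counts at day 3, 2 and 0 counts at day 5, and 14 and 88 counts in controls. The ATP2B3 call rested on control replicate 2, without which the edgeR adjusted p was 0.256 at day 3 and 0.326 at day 5. It was also lost without KO day 3 replicate 1 (0.109) or 2 (0.152) at day 3 and without KO day 5 replicate 1 (0.0642) or 2 (0.124) at day 5. Of 12 measured genes listed as NFAT targets, 1 was called higher and 1 lower at day 3, and 1 higher at day 5. These were 16.7% and 8.33% of the list, beside the same 11.7% and 14.5%. CD38, an ectoenzyme that makes the calcium-mobilising messenger cyclic ADP-ribose, rose to 26.9 ± 2.87 CPM at day 3 and 37.2 ± 0.735 at day 5, against 7.69 ± 2.15 in controls (log2 fold changes 1.80 and 2.27, edgeR adjusted p = 0.00371 and 0.00153, n = 2 each). CXCL8, a chemokine, fell at day 3 to 0.886 and 1.59 CPM, against 5.08 and 4.75 CPM in controls (log2 fold change -1.98, edgeR adjusted p = 0.0248, n = 2 each). That call ended when 1 of 3 libraries was left out, with an edgeR adjusted p of 0.143 for KO day 3 replicate 1, 0.0633 for KO day 3 replicate 2 and 0.0595 for control replicate 1.

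Total counts ranged from 15456770 to 21081298 per library. CAMK2D, the targeted gene, was at 14.7 and 15.6 CPM at day 3, 28.98 and 28.1 CPM at day 5, and 23.0 and 14.5 CPM in controls, without a call (edgeR adjusted p = 0.437 and 0.118, n = 2 each), so its mRNA does not mark the knockout and the libraries are called KO-labelled by their labels alone. All 12 markers of monocytic leukaemia listed were in the table. Their summed level was 1186 to 1329 CPM at day 3, 1242 to 1551 CPM at day 5 and 2947 to 3560 CPM in controls. Most of that difference lay in FLT3, at 241 to 341 CPM in KO-labelled libraries and 876 to 1063 CPM in controls, and in MPO, at 6.85 to 27.7 CPM in KO-labelled libraries and 662 to 1220 CPM in controls. SPI1, CSF1R, ITGAM and FCGR1A were also lower in each KO-labelled library than in both controls. SPI1 stood at 181.5 to 233.5 CPM in KO-labelled libraries and 281.5 to 350.9 CPM in controls. In the same order CSF1R stood at 1.355 to 6.816 and 30.9 to 40.99 CPM. ITGAM stood at 13.8 to 20.9 and 28.4 to 38.6 CPM, and FCGR1A at 13.6 to 31.0 and 42.4 to 85.4 CPM. For LYZ and PTPRC the KO-labelled libraries overlapped the controls. CD33 stood at 47.5 to 55.2 CPM in KO-labelled libraries and 48.1 to 55.9 CPM in controls. CEBPA stood at 315 to 318 CPM at day 3, 448 to 469 CPM at day 5 and 315 to 343 CPM in controls. CD68 was at 0 in all but 1 library, and CD14 was at 0.113 to 0.989 CPM in KO-labelled libraries and 0.964 to 2.97 CPM in controls. Of 5 T cell markers 1 was in the table, CD247, at 0 to 0.437 CPM, and of 4 erythroid markers 1, KLF1, at 0 to 0.273 CPM. The 2 B cell markers in the table summed to 0.546 to 0.770 CPM in KO-labelled libraries and 4.24 to 4.79 CPM in controls. Markers of epithelial or stromal cells summed to 63.3 to 71.4 CPM in KO-labelled libraries and 151 to 252 CPM in controls, most of it PECAM1, a gene that myeloid cells also express. The sum of the monocytic markers and several single markers moved with the groups while CD33 did not. The part of these markers in the calls above was not tested.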

How the data were processed

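Counts and FPKM per gene were deposited for 6 libraries, per the file headers. HISAT2, HTSeq 0.11.2, DESeq2 1.26.0 and the GRCh38 build are named, with no role, in the submitters' processing notes. How reads were assigned to genes is not given in the sources used. The authors' FPKM equal the count scaled by table total and by GENCODE release 29 exon length for 99.7% of genes, to within 0.5 bases. Deposited counts were tested with edgeR 4.0.16 in R 4.3.3 (filterByExpr, 14601 genes kept, TMM factors, 1 quasi-likelihood fit of 3 groups, no block, Benjamini-Hochberg adjustment over all genes tested, threshold 0.05). Where no setting is named, passing by edgeR refers to this fit, which had 3 residual degrees of freedom. SE is the size of the log2 fold change divided by the root of the F statistic. CPM are TMM-scaled. Group labels gave the comparisons of day 3 with control, day 5 with control and day 5 with day 3. Totals were 15456770 to 21081298 counts per library. No pair was a repeat deposit (chi-square over degrees of freedom 17.4 to 37.7).

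Genes described in full were the members past the threshold in at least 1 comparison and the member with the highest control FPKM in each role, with up to 4 called genes of smallest adjusted p per further list. A gene that this rule takes is not reported here. The others are given by mean or per library. Alternatives were RLE and upper-quartile factors, other filters, the replicate number as a block, fits of the groups compared, leaving out each library, DESeq2 1.42.0, and limma 3.58.1 (voom, and log2 of FPKM plus 1 or 0.1). The members and lists were chosen with earlier results of these data known. The test was checked on simulated data. It recovered 32.3%, 38.9% and 35.5% of 2-fold changes for day 3 with control, day 5 with control and day 5 with day 3. For 4-fold changes it recovered 68.8%, 84.5% and 72.5% in the same order. A gene that did not pass may therefore still have changed. For day 3 with control the simulation changed 96 genes 2-fold and 93 genes 4-fold among 14183, drawn at random. In the data 1710 genes were called there, and the members' median control level was above that of all genes tested. The recovered shares therefore do not give the power for these members.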

Additional observations from a re-analysis of the deposited data

Results flagged for a closer look

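CXCL8, a chemokine on the list of NFAT targets, went opposite ways on the 2 days. Both day 3 libraries (0.886 and 1.59 CPM) lay below both controls (5.08 and 4.75 CPM), and both day 5 libraries (7.07 and 11.7 CPM) lay above them, on 17 to 215 counts per library. The log2 fold change against control was -1.98 at day 3 (SE 0.425, edgeR adjusted p = 0.0248, n = 2 each) and 0.94 at day 5 (SE 0.392, edgeR adjusted p = 0.148, n = 2 each). The direct difference of day 5 over day 3 was 2.92 (SE 0.43, edgeR adjusted p = 0.1248, n = 2 each), which did not pass the threshold. No group of 4 or more libraries was available for a check of single outlying libraries.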

How the results depend on the processing

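The number of members called at day 3, 3 in the reported fit, was 9 without a low-count filter, 6 with at least 5 CPM in 2 libraries, 9 with DESeq2, 1 with limma on either log2 FPKM scale and 0 with limma on unfiltered FPKM, and ranged from 1 to 4 with 1 library left out. At day 5, with 6 reported, it was 15 without the filter, 12 with DESeq2 and 2 with limma on unfiltered FPKM, and ranged from 2 to 9 with 1 library left out. Between the days it was 1 without the filter and 1 with DESeq2, against 0, and 0 with any 1 library left out. Of the further genes, 18 in the reported fit at day 3, 28 were called without the filter and 3 with limma on unfiltered FPKM, with 4 to 16 when 1 library was left out. At day 5, also 18 as reported, it was 29 without the filter, 29 with DESeq2 and 8 with limma on unfiltered FPKM, with 7 to 17 when 1 library was left out. Between the days it was 6 without the filter and 3 with DESeq2, and 0 with 1 library left out. The share of all genes tested moved too: at day 3, from the reported 11.7%, it was 11.8% without the filter, 16.3% at 5 CPM, 18.1% with DESeq2, 10.6% and 10.2% with limma on FPKM plus 1 and plus 0.1, and 1.02% on unfiltered FPKM. At day 5, from 14.5%, it was 13.0% without the filter, 20.4% with DESeq2 and 2.43% on unfiltered FPKM, and between the days, from 0.0274%, it was 2.41% without the filter and 2.98% with DESeq2. The cause of these moves was not tested. RLE and upper-quartile scaling moved none of these counts by more than 1.5 times.

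The replicate number as a block gave 15 members at day 3 (5 higher, 10 lower), 18 at day 5 (9 higher, 9 lower) and 4 between the days. It gave 40, 39 and 7 further genes, where it called 27.8%, 30.3% and 7.65% of all genes tested. TRPM2, P2RX1 and ITPR3, whose replicate libraries differ widely, were among the members it called lower at day 3 and day 5. So were ORAI1, PLCB2, ATP2B4, PPP3CB and NFATC3, with ATP2A3 and MCUB lower at day 3 only and NFATC1 at day 5 only. Called higher at both days were STIM1, ORAI2, ITPR1, P2RX7 and RCAN1, and at day 5 also PLCG1, ATP2C1, MICU2 and P2RX4. The labels do not say that a number marks a shared batch. The deviations of same-numbered libraries from their group means correlated at 0.355, 0.303 and 0.347 over 14601 genes for day 3 with control, day 5 with control and day 5 with day 3. With 2 libraries per group the deviations mirror each other. Both replicate numbers therefore give the same correlation, and the 2 pairs are not independent.

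Values that changed sign when 1 library was left out were uncalled. At day 3, SMDT1 ranged from -0.22 without control replicate 1 to 0.45 (it was -0.047 without KO day 3 replicate 2), PPIA from -0.090 to 0.022 (without KO day 3 replicate 1), and CAMK2D from -0.59 to 0.068 (without control replicate 1). At day 5, ATP2A3 ranged from -0.24 to 0.012 (without KO day 5 replicate 1) and SMDT1 from -0.58 to 0.070 (without control replicate 2). All 35 members had at least 49 counts per library; several further genes, such as ATP2B3 and CXCL8, rest on far fewer.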
